A study of Caenorhabditis elegans with 2 samples.

Results

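RPC-1 is the largest subunit of RNA polymerase III, the enzyme that makes tRNA, 5S rRNA and other short RNAs. Its occupancy in Caenorhabditis elegans was measured by ChIP-seq, the sequencing of DNA recovered with an antibody from fixed chromatin. The animals were whole young adults of the laboratory strain N2, with both sexes pooled, and the labels give no treatment. The 2 biological replicates form 1 group, and there is no second condition to set beside it. The peaks described here lay at promoters of protein-coding genes, away from genes that polymerase III is known to transcribe. They were chosen by their presence in the thresholded peak list made from both replicates, that is, by the measured signal itself, so their number and strength are descriptions with no test. A peak qualified when its summit lay within 500 bp of the annotated 5' end of a protein-coding gene and no tRNA, tRNA pseudogene, snoRNA, miRNA, snRNA, rRNA, SRP RNA, RNase P, RNase MRP or Y RNA gene lay within 500 bp of the peak. Of 1294 nuclear peaks in that list, 218 qualified (16.8%, interval 14.8 to 19.0%), and they made up 39.3% of the 555 nuclear peaks away from such genes. They lay on build ce11, which equals WBcel235. All intervals on shares are exact (Clopper-Pearson) 95% intervals and cover counting error only. The read depth is unknown, and in whole animals strong occupancy in few cells and weak occupancy in many cannot be told apart.

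As background, polymerase III mostly starts from elements inside its genes. At tRNA genes, the A box and the B box are bound by the factor TFIIIC, which brings TFIIIB and then the polymerase. Promoters of protein-coding genes are read by polymerase II instead. Heat shock genes among them carry heat shock elements, alternating repeats of a short unit bound by the factor HSF-1. In the worm many protein-coding transcripts are trans-spliced to a short leader, which removes the original start, so an annotated 5' end can lie downstream of the true start.

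Short stretches at or beside the summits of strong members of the 218 peaks show the elements that recur in the results. They were read from the plus strand of ce11, 5' to 3', lie outside annotated exons, and are centred on the match nearest to the summit or, for rpl-3, on the summit. In the first pair the capitals mark a heat shock element of 3 units, at the shared promoter of 2 HSP70 genes and at R107.5.
F44E5.4/F44E5.5, chrII:11759387-11759506: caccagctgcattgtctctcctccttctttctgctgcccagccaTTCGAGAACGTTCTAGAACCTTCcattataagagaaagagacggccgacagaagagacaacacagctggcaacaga
R107.5, chrIII:9053987-9054106: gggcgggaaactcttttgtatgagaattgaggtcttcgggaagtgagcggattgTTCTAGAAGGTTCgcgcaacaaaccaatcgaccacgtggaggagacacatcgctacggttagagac
The next window, upstream of the gene for the mitochondrial HSP10 co-chaperonin, holds 1 such element in capitals. It is centred at -83 bp from the summit in plus-strand coordinates and does not contain the summit, which the other stretches do.
Y22D7AL.10, chrIII:1618991-1619110: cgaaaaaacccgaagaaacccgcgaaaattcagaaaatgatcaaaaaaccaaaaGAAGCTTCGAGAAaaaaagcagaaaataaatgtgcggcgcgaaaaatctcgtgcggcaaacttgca
In the following group the capitals mark the GC box (CCGCCC on one strand, read as GGGCGG on the other).
C16C10.4/rnf-121, chrIII:4171156-4171275: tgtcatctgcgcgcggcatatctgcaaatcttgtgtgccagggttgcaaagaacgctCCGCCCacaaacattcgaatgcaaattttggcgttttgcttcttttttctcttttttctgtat
idhg-1, chrIII:4568725-4568844: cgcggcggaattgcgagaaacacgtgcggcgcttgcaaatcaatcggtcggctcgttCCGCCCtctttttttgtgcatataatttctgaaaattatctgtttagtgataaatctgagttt
tasp-1, chrIII:10759135-10759254: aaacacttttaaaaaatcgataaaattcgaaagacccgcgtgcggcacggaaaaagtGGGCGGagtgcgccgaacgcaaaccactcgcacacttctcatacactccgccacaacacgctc
The next window holds a B box of the polymerase III promoter in capitals, with no annotated gene of that kind near it.
sms-3, chrIII:1601523-1601642: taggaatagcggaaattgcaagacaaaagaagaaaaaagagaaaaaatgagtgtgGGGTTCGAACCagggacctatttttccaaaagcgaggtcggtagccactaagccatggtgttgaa
The last, at a ribosomal protein gene, is the strongest summit with none of the motifs searched whose stretch lies outside annotated exons. The stronger peak at ears-2/uncp-18 held none either, but the stretch at its summit meets exons.
rpl-3, chrIII:3867497-3867616: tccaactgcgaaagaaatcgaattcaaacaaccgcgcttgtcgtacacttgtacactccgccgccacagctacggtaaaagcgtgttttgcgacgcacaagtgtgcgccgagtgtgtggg
The F44E5.4/F44E5.5 stretch holds 3 overlapping matches to the heat shock element. The windows of Y22D7AL.10, idhg-1 and tasp-1 also hold the 6-mer GCCGCA on one of the strands, 2 copies in the first and 1 in each of the others.

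The peaks were weak as a group, with a few strong exceptions. Their median signal, the authors' value per peak, was 59.8 (order-statistic 95% interval 56.1 to 70.1), with quartiles of 44.9 and 109 and a range from 35.6 to 1209. Peaks at tRNA genes in the same list had a median of 329.9 (n = 563) and those at snoRNA genes 484 (n = 72). Distal peaks, away from both kinds of gene, had a median of 61.5 (n = 337), inside the interval of the 218. Only 30 of the 218 (13.8%, interval 9.48 to 19.1%) were in the stronger 660 of the list, and 2 were in the upper 100. The interquartile range of the 218 did not reach the lower quartile of the tRNA peaks, which was 193.

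**Figure D1:**
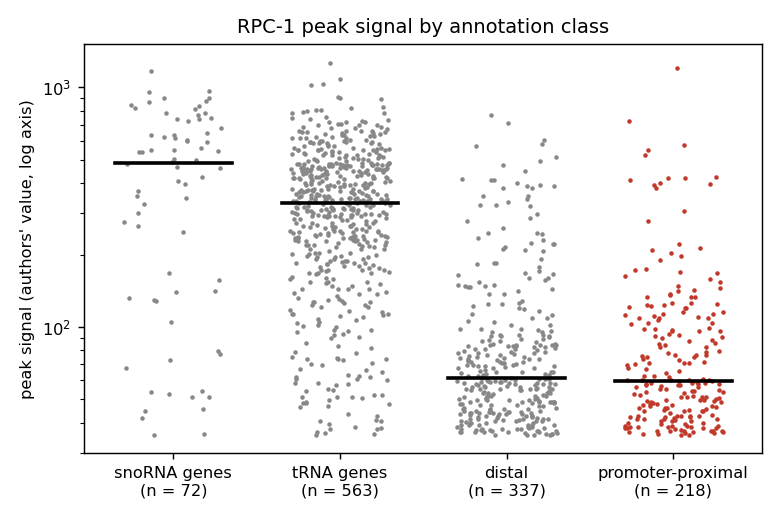
Signal of each peak (authors' value, log axis) in 4 classes of the thresholded list. Points are peaks and black lines are class medians. The 218 promoter-proximal peaks have a median of 59.8, close to the distal peaks at 61.5, while tRNA peaks have a median of 329.9.

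Genes of protein folding led the list. The strongest peak, chromosome II, 11759260 to 11759707, lay in the gap that separates F44E5.4 from F44E5.5, both of which encode HSP70 made upon heat, with a signal of 1209. It held rank 7 in replicate 1 (signal 337) and rank 2 in replicate 2 (883). Scales differ between lists, so ranks, not signals, are compared between them. Y22D7AL.10, the HSP10 gene, had a signal of 549 and ranked 218 in replicate 1 and 105 in replicate 2. The constitutive HSP70 gene hsp-1 had 425 (ranks 283 and 230), dnj-13, which encodes a J-domain partner of HSP70, had 419 (ranks 319 and 238), and the promoter between rpn-3 and hsp-110 had 382 (ranks 331 and 299). These 4 peaks ranked somewhat better in replicate 2 than in replicate 1. rpn-3 encodes a subunit of the proteasome cap and hsp-110 a nucleotide exchange factor for HSP70, and their 5' ends were 444 bp apart.

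Further chaperone promoters followed at lower signal. hsp-90 shared its peak with C47E8.4 (signal 204, ranks 522 and 583 in replicates 1 and 2). hsp-70 had 136 (ranks 719 and 655), and the promoter that hsp-16.41 shares with hsp-16.2, both for small heat shock proteins, had 124 (ranks 708 and 701). hsp-6, which encodes the mitochondrial HSP70, had 112 at a promoter shared with C37H5.5 (ranks 770 and 733). Of 24 genes with heat shock protein symbols 7 had a 5' end within 500 bp of a summit (29.2%, interval 12.6 to 51.1%), where 1.46% of all 19971 protein-coding genes did (291 genes). Of 29 J-domain genes 5 did, dnj-11, dnj-12, dnj-13, dnj-19 and dnj-29, and of 15 genes for chaperonin, prefoldin and HSP10 3 did, Y22D7AL.10, cct-1 and cct-8. Without replicate 2 the J-domain genes were 3, and the heat shock protein genes were still 7. Together these lists and the F44E5.4/F44E5.5 pair covered 16 peaks with a median signal of 130.1, 12 of them at divergent promoters, and all 16 summits lay upstream. The genes and lists were chosen with earlier results of these data known, so these counts are descriptions.

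Cofactors of HSP70 and HSP90 outside those lists were also present, in a list drawn up after the values were seen. It held 11 genes, of which 6 were at a summit, with peak signals from 44.7 to 278. Of all protein-coding genes 1.46% were at a summit, but this list was chosen with the members known, so the shares cannot be compared. unc-23, a gene for a BAG-domain protein of muscle, had 278 (ranks 583 and 402), and bag-1, for another BAG-domain regulator of HSP70, had 159 (ranks 747 and 597). sti-1, whose product links HSP70 to HSP90, had 109.8 (ranks 924 and 704). ahsa-1, for an activator of the HSP90 ATPase, had 69.7 and ranked 4706 in replicate 1 but 809 in replicate 2. fkb-6 had 67.6 (ranks 823 and 1065) and hip-1, for an HSP70-interacting protein, 44.7 (ranks 6305 and 1051). The last, like ahsa-1, was far down the list of replicate 1.

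Other members of the strongest 25 had mixed functions. R107.5, annotated as uncharacterized (chromosome III, 9053860 to 9054259), was second with 725 (ranks 100 and 27). T13C5.6, which RefSeq annotates as a phosphatidic acid phosphatase, had 574 (ranks 84 and 123) and W01D2.3, a receptor expression-enhancing protein, 523 (ranks 150 and 149). W08A12.2, annotated as neuropeptide-like, had 418 at a summit in an intron of W08A12.3. sms-3, for a sphingomyelin synthase-like enzyme, had 2 peaks, at 411 upstream and 394 in its own intron. tba-7, an alpha tubulin gene, had 398 in its intron and ZK816.3, uncharacterized, 391. These peaks at T13C5.6, W01D2.3, tba-7 and ZK816.3 overlapped annotated short non-coding RNA (ncRNA) genes, as did those at hsp-1, dnj-13 and rpn-3/hsp-110.

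The remaining strongest peaks ran from 306 down to 168. ears-2, for a mitochondrial glutamyl-tRNA synthetase, shared its peak with uncp-18 (306) and was the single synthetase gene of 33 at a summit. Y65B4A.2, a papain-type peptidase gene, had 222 in its intron. atx-2, for the RNA-binding ataxin-2, had 215. The divergent pair C16C10.4 and rnf-121, the second for an E3 ubiquitin ligase, had 209. idhg-1, for a subunit of isocitrate dehydrogenase, had 198, the pair spe-48 and spgt-1 190.2, and tasp-1, for a taspase, 175. rpl-3 had 173, cpf-2, for a factor of mRNA 3' end cleavage, 169.7, and Y43F8B.17, a peptidase gene with the summit in its coding exon, 168. Of these, rpl-3 had the greatest gap between replicates, rank 274 in replicate 1 (signal 137) and 1037 in replicate 2 (35.8).

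**Figure D2:**
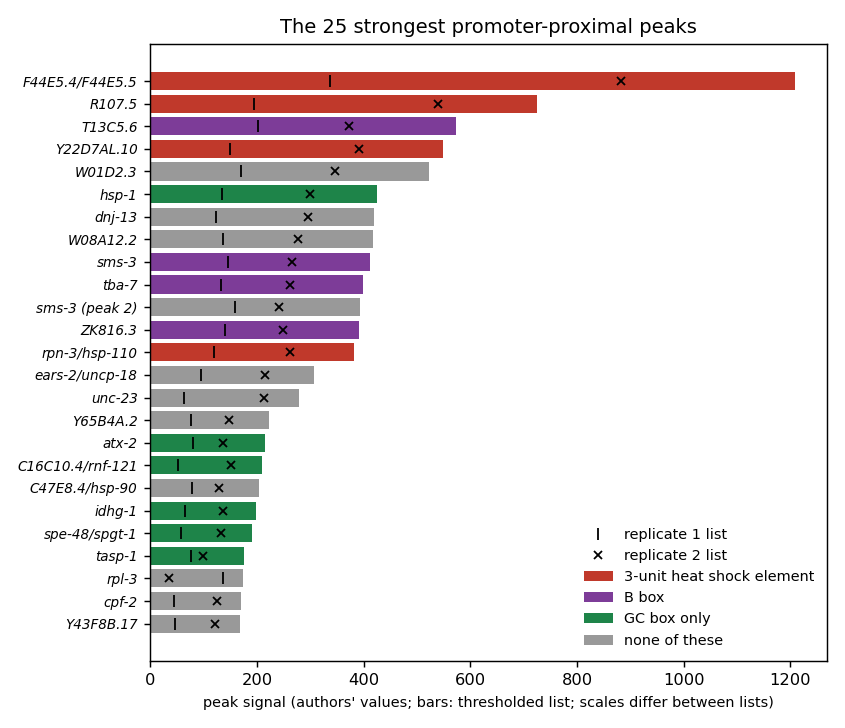
The 25 strongest promoter-proximal peaks by nearest gene or genes. Bars give the signal in the thresholded list, with colours for the motif at the summit, and marks give the signals in the replicates' own lists, whose scales differ. F44E5.4/F44E5.5 stands at 1209 and the other 24 lie between 725 and 168. rpl-3 is the peak whose replicate 1 mark is to the right of its replicate 2 mark.

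Listed genes of protein synthesis, degradation and respiration were at 32 of the 193 peaks below the strongest 25 (16.6%). This count includes a complex I list added after the values were seen, and no share of peaks stands beside it. The shares of genes that follow are to be read beside the 1.46% of all protein-coding genes. Ribosomal protein genes had a summit at 13 of 78 (16.7%, interval 9.18 to 26.8%), with signals from 36.1 to 173 (median 64.7). Without replicate 1 the count was 5 and without replicate 2 it was 19. The strongest were rpl-3 (173), rps-28 (149), rpl-18A (125) and rpl-35 (123). Their summits lay farther upstream than usual, at a median of -278 bp from the nearest 5' end. A further 7 ribosomal protein genes had a peak that was left out because a snoRNA gene lay within 500 bp, as at rpl-15 (signal 139, snoRNA 490 bp away). Of 41 translation factor genes 3 were at a summit, eef-2, eif-1.A and ifet-1. The proteasome and ubiquitin list had 9 of 60 (15%, interval 7.10 to 26.6%), among them the proteasome genes rpn-3, rpn-5, rpn-7 and pbs-3, the ubiquitin gene ubq-2, and ubc-9, for the SUMO-conjugating enzyme (47.6). uba-5, ubc-6 and ubc-12, for enzymes of ubiquitin-like conjugation, completed it. The list of respiratory chain and ATP synthase genes had 6 of 52 (11.5%), namely atp-1, atp-2, atp-5, cox-5A, cox-5B and cox-6B. Their signals ran from 41.6 to 86.3. Without replicate 1 the listed genes were 2 and without replicate 2 they were 7. Y82E9BR.3, annotated as an ATP synthase c subunit (45.8), was at a summit but carries another symbol and was not in the list. Genes ndua-1, ndua-2 and ndub-8 of complex I were 3 of 25 in a list added after the values were seen. Nuclear transport genes had 5 of 41 (12.2%), the importin gene ima-1, the nucleoporin genes npp-3, npp-6 and npp-8, and ran-3.

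Some genes whose products work with polymerase III were at a summit. rpac-19, for a subunit shared by polymerases I and III, had a signal of 84.7 (ranks 1027 and 808). ssb-1, for the La protein that binds the ends of new polymerase III transcripts, shared a peak of 134 with ubr-4 (ranks 812 and 649). snpc-3.4, for a subunit of the complex that activates small nuclear RNA genes, had 41.1 (ranks 921 and 1583). The last 2 genes were picked after their values were seen. Of 22 genes for subunits of polymerases I, II and III 2 were at a summit, rpac-19 and rpb-4. That is 9.09% (interval 1.12 to 29.2%, which holds the 1.46% of all protein-coding genes).

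Other groups of genes had small counts. Their lists were matched by symbol and are incomplete, so the counts are of listed genes, not of all genes with the function. For instance, hrde-1, for an Argonaute protein, was at a summit but was not in the list of germline and small RNA genes. The interval of each listed group in this paragraph holds the 1.46% of all protein-coding genes. Splicing factors had 2 of 59, rnp-6 (82.6) and snr-6 (42.4), genes of germline and small RNA pathways 2 of 55, ego-1 (38.6) and rde-10 (82.6), and actin, tubulin and myosin genes 2 of 35, act-2 (40.7) and tba-7. The list of nucleolar and snoRNP genes had none of 21 (upper bound 16.1%), but genes with such annotations outside it were at a summit. Among them were C37H5.5, for a nucleolar complex protein (112), krr-1, for a small subunit processome component (76.3), and tsr-2, for a pre-rRNA processing protein (58.2). A list of developmental regulators, drawn from symbols given to mutants, had 7 of 326 (2.15%, interval 0.868 to 4.37%), namely egl-30, lin-7, lin-35, lin-53, unc-16, unc-23 and unc-85. cdk-9, for a kinase of transcription elongation, was caught by a cell cycle pattern as 1 of 51 (155, shared with hxk-2). That pattern did not catch scc-1, for a sister chromatid cohesion protein, which was also at a summit (58.1).

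In several large gene families few or no genes were at a summit, to be read beside the 1.46% of all protein-coding genes. Of 1367 chemoreceptor genes 1 was at a summit, srd-66 (0.0732%, interval 0.00185 to 0.407%). None of 382 genes of pathogen response was (upper bound 0.961%), none of 147 neuropeptide and insulin genes (upper bound 2.48%) and none of 45 major sperm protein genes (upper bound 7.87%). W08A12.2, named above, carries no neuropeptide symbol and was not in that list. Collagens had 1 of 176 (col-40), nuclear hormone receptors 2 of 269 (nhr-47 and nhr-142), histones 1 of 82 (his-37) and detoxification genes 1 of 215 (gst-1), each with a signal under 40. The intervals for chemoreceptors and pathogen response lie below 1.46%, and those for the other families in this paragraph hold it. Peaks left out because a tRNA or snoRNA gene lay within 500 bp were found at 3 chemoreceptor genes (srh-269, srz-58 and srd-44), 2 collagen genes (col-54 and col-85), 2 neuropeptide genes (nlp-62 and flp-23), nhr-193, gst-27 and clec-126. The 5 lowest peaks were at rps-11 (36.1), uri-1 (36.0), nhr-47 with dnj-19 (35.8), gst-1 (35.7) and F44E7.9 with nhr-142 (35.6).

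The summits lay on one side of the genes. Of 218, 194 (89.0%, interval 84.1 to 92.8%) were upstream of the nearest protein-coding 5' end, at a median of -176 bp (quartiles -285 and -90.2, range -488 to 430). The rule used the distance without its sign. A summit between 2 genes that point away from each other is upstream of both, however, and 76 of the 77 peaks at such pairs were upstream. No upstream share of positions chosen without regard to signal stands beside these values. The fullest interval of 100 bp was -200 to -101 bp with 71 peaks, while 3 summits lay from 0 to 100 bp downstream and 21 farther downstream. By annotation 188 summits (86.2%) were intergenic, 21 in an intron, 6 in a UTR exon and 3 in a coding exon. In 26 cases (11.9%) a gene on the same strand ended within 500 bp upstream of the 5' end. This was not counted over all protein-coding 5' ends, so the share cannot be called high or low. The 24 summits that were not upstream had a median signal of 55.6, against 60.4 for those upstream (intervals 40.0 to 83.1 and 56.7 to 71.4).

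**Figure D3:**
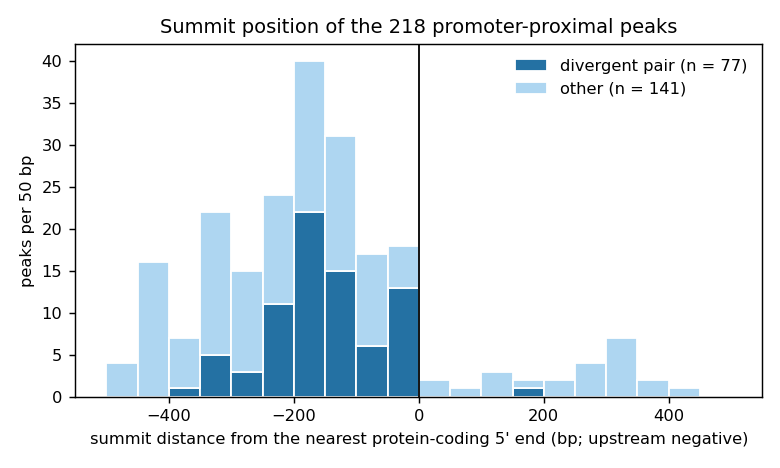
Number of promoter-proximal peaks by distance of the summit from the nearest protein-coding 5' end, in bins of 50 bp (upstream negative), with peaks at divergent pairs in dark blue. 194 of 218 summits lie upstream, with a median of -176 bp.

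Many peaks sat between 2 genes that point away from each other. At 77 peaks (35.3%, interval 29.0 to 42.1%) the 5' ends of a divergent pair both lay within 500 bp of the summit, with a median gap of 437 bp (92 to 848 bp). Seen from the genes, the nearest gene of 46.3% of the peaks (interval 39.6 to 53.2%) had a divergent partner within 1000 bp, where 17.5% of all protein-coding 5' ends had one. A region with 2 starts has 2 chances to meet the rule, so part of that excess is set by the choice of peaks. The median signal at divergent pairs was 60.4 (interval 54.5 to 73.7), and elsewhere 59.6 (52.2 to 74.8).

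The peaks were spread over all 6 nuclear chromosomes, with few on X. Chromosome X held 14 (6.42%, interval 3.56 to 10.5%), where it holds 13.7% of protein-coding genes and 28.4% of all nuclear peaks in the list. Chromosomes I, III and V held 47 each, II 36 and IV 27. Chromosomes I and III have 14.4% and 13.2% of protein-coding genes and had 21.6% each of these peaks.

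Heat shock elements and GC boxes were more frequent at these summits than in promoters in general. Motifs were searched on both strands in 300 bp centred on the summit, and in the 300 bp from 250 before to 50 after every protein-coding 5' end. The heat shock element of 3 units was in 28 windows (12.8%, interval 8.71 to 18.0%) and in 1.97% of all promoters, but also in 18.1% of distal peaks (interval 14.1 to 22.6%). At tRNA peaks it was in 0.355%. When the same rule was applied to the strongest regions of 1 replicate, the share was 6.85% (17 of 248) without replicate 2 and 14.9% (28 of 188) without replicate 1. The element nearest to the summit lay at a median of 34 bp, within 50 bp in 17 of the 28. The GC box CCGCCC was in 75 windows (34.4%, interval 28.1 to 41.1%), in 7.81% of all promoters and in 6.23% of distal peaks. It lay within 50 bp of the summit in 52 of the 75, at a median of 36 bp. A heat shock element of 2 units (TTCNNGAA or GAANNTTC, which the element of 3 units contains) was in 42.7%, against 32.6% of all promoters and 39.5% of distal peaks.

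The TATA box and the GATA site were less frequent than in promoters, and the E box, the DAF-16 element and the GA repeat were close to them. The TATA box TATAAA was in 23.4% of the 218 windows and 37.9% of all promoters, and the GATA site TGATAA in 16.5% and 30.2%. The E box CACGTG was in 5.96% and 5.82%, the DAF-16 element GTAAACA in 4.13% and 4.75%, and the GA repeat GAGAGAGA in 2.29% and 3.46%. The windows were richer in G and C than promoters, with a median of 37.8% against 34.3%, and distal peaks had 38.7%. Among windows with a GC content of 34.0 to 42.3%, a range set after the data were seen, the heat shock element of 3 units was in 13.2% of 114 members and 1.79% of 8212 promoters, and the GC box in 31.6% and 10.8%. TATAAA was then in 21.1% and 31.4%. For this comparison and that of 6-mers, promoter windows were centred 176 bp upstream of the 5' end.

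**Figure D4:**
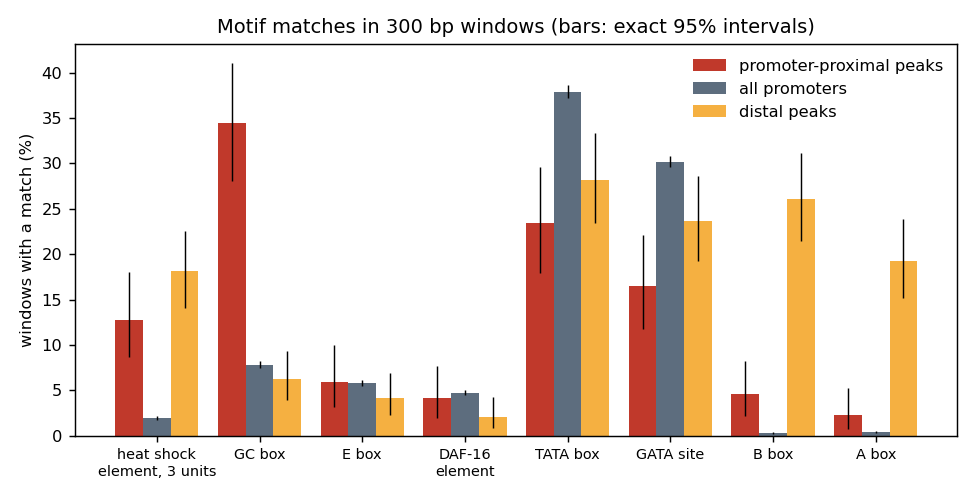
Share of 300 bp windows with at least 1 match to each motif, for the promoter-proximal peaks, all protein-coding promoters and distal peaks, with exact 95% intervals. The GC box stands at 34.4% in the promoter-proximal peaks and at 7.81% and 6.23% in the others, while the B box stands at 26.1% in distal peaks and 4.59% in the promoter-proximal ones.

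The promoters with heat shock elements of 3 units named chaperones and a range of other genes. They included F44E5.4/F44E5.5, hsp-70, hsp-16.2/hsp-16.41, hsp-6, rpn-3/hsp-110, Y22D7AL.10, dnj-12, bag-1, ahsa-1 and hip-1. Genes of other kinds with the element included R107.5, cyn-7 for a cyclophilin, mbf-1 for a transcriptional coactivator, ubql-1 for ubiquilin and ubc-9. Also among them were pek-1 for a kinase of the unfolded protein response, hrde-1 for a nuclear Argonaute, atp-5, lin-35, C23G10.7, oga-1 and gst-1. At hsp-6, ahsa-1, cyn-7, hrde-1, atp-5 and lin-35 the summit lay nearer to the 5' end of the other gene of the pair. Those were C37H5.5, C01G10.7, bath-36, C16C10.13, lmtr-3 and vps-51, in that order. Of the 16 peaks at the chaperone lists 7 held the element and 9 did not, those at hsp-1, dnj-13, hsp-90, cct-8, cct-1, dnj-11, dnj-19 and both peaks between dnj-29 and ndua-2. Of the 6 at the added co-chaperone list, those at unc-23, sti-1 and fkb-6 did not. Of the 28 windows 5 held over 8 matches, some of them overlapping and others apart. At glb-33, gtnt-33, Y71G12B.33 and F55C9.5 these were 12, 23, 9 and 9, all at summits downstream of the 5' end, in sequence where 49.6 to 78.9% of the 32-mers of the peak are unique in the genome. F44E5.4/F44E5.5 had 10 matches and 62.6% unique 32-mers. Without windows of over 3 matches, 23 of 213 (10.8%) held the element.

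A GC-rich sequence around the summits emerged from a count of all 6-mers, made after the data were seen. Among 849 6-mers held by at least 22 members, the sequence CGCACG had the highest ratio to promoters (8.06 times), followed by CCGCAC (7.81 times) and then GCCGCA (7.33 times), and they overlap into the 8-mer GCCGCACG. GCCGCA was in 75 windows (34.4%, interval 28.1 to 41.1%), in 4.69% of promoters, in 5.34% of distal peaks and in 6.93% of tRNA peaks. Within the GC range above it was in 36.0% of members and 6.39% of promoters. The copy nearest to the summit lay at a median of 18 bp, within 50 bp in 63 of the 75, and 72 of those summits were upstream. The 8-mer GCCGCACG was in 33 windows (15.1%) and 0.386% of promoters. Of the 75 windows with GCCGCA 44 also held the GC box and 4 the heat shock element of 3 units. Soft-masked repeat sequence held every copy in 10 of the 75. Together, the heat shock element, the GC box or GCCGCA was in 127 of 218 windows (58.3%). GCCGCA was picked for its high ratio in these same windows, which raises that share. The same union was not counted in promoters or distal peaks, so the share has no value to be read beside.

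Elements of the internal polymerase III promoter were in few windows, but in a larger share than in all promoters. The B box was in 10 windows (4.59%, interval 2.22 to 8.27%), in 0.295% of all promoters, in 26.1% of distal peaks and in 78.5% of tRNA peaks. The A box was in 2.29%, in 0.406% of all promoters and in 19.3% of distal peaks. None of the 10 held a heat shock element of 3 units or a GC box, and none was at a divergent pair. Over all 218 peaks these shares were 12.8%, 34.4% and 35.3%, and 10 windows are too few to read much from an absence. The 4 strong ones were T13C5.6 (574), sms-3 (411), tba-7 (398) and ZK816.3 (391), with the B box 21 to 49 bp from the summit. They were 4 of the 25 strongest peaks (16.0%, interval 4.54 to 36.1%), as many as held a heat shock element of 3 units. At T13C5.6, tba-7 and ZK816.3 it lay inside an annotated ncRNA gene, namely C14F11.14, T28D6.10 with T28D6.15, and ZK816.8 with ZK816.9. The other 6 were weak, from 37 to 56.1, at T07D10.1, col-40, Y57G7A.1, lgc-55, pqn-94 and clc-24. Over all 218 peaks, 25 (11.5%) overlapped an annotated ncRNA gene, with a median signal of 62.4 (interval 45.8 to 126), against 59.8 for all. Among them were strong peaks named above, at T13C5.6, W01D2.3, hsp-1, dnj-13, tba-7, ZK816.3 and rpn-3/hsp-110, with signals from 382 to 574. Overlap with ncRNA genes was not counted over all promoters, so that share has no value to be read beside.

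The replicates met most peaks but ordered them differently. Regions of replicate 1's own list overlapped 213 of the 218 and those of replicate 2's list 212, and 207 (95%) were met by both. These lists hold 30000 regions each, so an overlap is a lenient criterion. When each replicate's list was cut to as many of its strongest regions as the thresholded list holds peaks, 109 (50%) were met by both and 10 by neither. Spearman's rho between the ranks was 0.36 across the 207 peaks, with 0.59 at distal peaks (n = 331), 0.94 at tRNA peaks (n = 562) and 0.96 at snoRNA peaks (n = 71). These are descriptions: the points share 2 libraries and a control, and the thresholded list limits the range of signals.

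The order differed by kind of promoter. Of 27 peaks with a heat shock element of 3 units met by both replicates, 26 ranked better in replicate 2 and 1, at atp-5, in replicate 1 (ranks 1068 and 1420). Their median rank was 1279 in replicate 1 and 834 in replicate 2. Ribosomal protein promoters went the other way, with 9 of 10 ranked better in replicate 1 and medians of 679 and 1236. Listed respiration genes did so at 5 of 5, with medians of 822 and 1420. For all members the count was 81 in replicate 1 and 125 in replicate 2, and for those with neither a heat shock element nor a GC box 58 and 55. GC box promoters ranked better in replicate 1 at 22 and in replicate 2 at 49. With 1 sample on each side there is no test of these differences, and their cause was not tested.

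**Figure D5:**
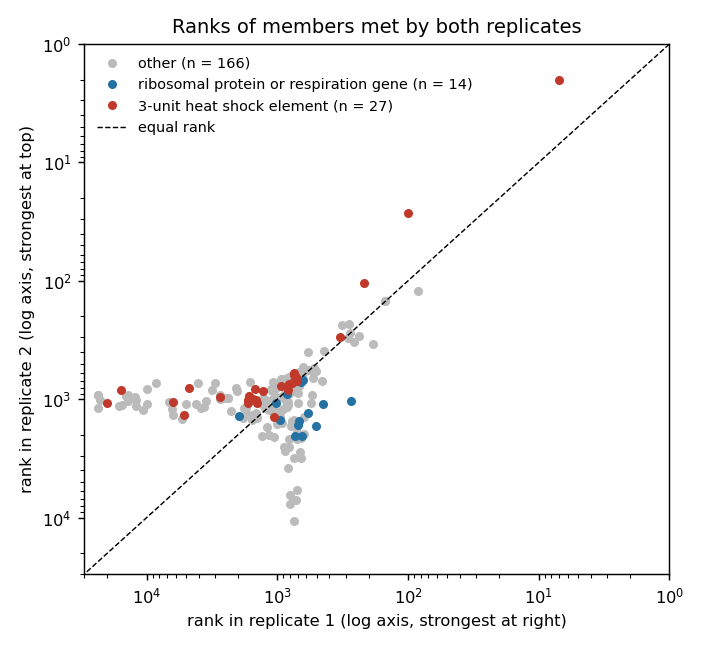
Rank of each of the 207 peaks met by both replicates in replicate 1's list (x) and replicate 2's list (y), log axes with the strongest at right and top. Of peaks with a heat shock element of 3 units (red, n = 27), 26 lie above the dashed line of equal rank. Ribosomal protein and respiration promoters without the element (blue, n = 14) lie mostly below it.

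A few peaks were met by 1 replicate only. Replicate 2 had no region at 6 peaks, rpl-11.2 (60.5), atp-1/mcrs-1 (48.6), ndub-8/cup-14 (44.6), frg-1/ubq-2 (42.3), rps-17 (38.2) and rpl-10a/Y71F9AL.9 (36.9). Replicate 1 had none at 5, mmab-1 (47.9), ubc-9 (47.6), taf-10 (40.5), F38A5.2/dnj-11 (37) and nhr-47/dnj-19 (35.8). All 11 had signals under 61 in the thresholded list.

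The limits of the rule cut through similar peaks. The 3 just inside 500 bp of a 5' end were at F39F10.2 (-472 bp, signal 97.3), rtfo-1 (-481 bp, 109.7) and sms-3 (-488 bp, 411), and the 3 just outside at ptr-18 (503 bp, 53.1), F19B2.5 (-519 bp, 172) and F54H12.10 (-522 bp, 71.4). By distance to an excluded gene, the 3 just inside were ekl-4 (665 bp from mir-354, signal 64.7), F20D12.12 (722 bp from a snoRNA gene, 45.9) and vha-9 (787 bp from a tRNA gene, 74.8). Just outside were dpm-3 (479 bp, 47.0), iff-2 (487 bp, 38.7) and rpl-15 (490 bp, 139), each from a snoRNA gene. In 178 of the 218 peaks (81.7%) every 32-mer was unique in the genome, and in 12 peaks under 50% were. Soft-masked sequence, which marks repeats and simple sequence in the assembly, made up a median of 37.7% of the 300 bp windows, and 33.7% of promoter windows centred 176 bp upstream of the 5' end. In 63 of the 218 windows (28.9%) it made up over 50%.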

How the data were processed

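The authors deposited peak lists on build ce11: a list thresholded by the irreproducible discovery rate from both replicates, and a relaxed list for each replicate called with a control, per the submitters' list of files. The signal value per peak is the authors' own, and since each list has its own scale it was compared only within a list. The deposited -log10 q value takes 1 value throughout the thresholded list and was not used. Aligner, peak caller, versions and read length were not given in the sources used here. The control library and the ce10 lists were not analysed here.

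Peaks were joined to the RefSeq annotation of WBcel235 (WormBase release WS298). A gene counted as at a member when its 5' end was within 500 bp of the summit, and lists were matched by gene symbol. A gene with the function of a list but another symbol was not counted. A replicate met a member by any overlap. The members and lists were chosen with earlier results of these data known. The chemoreceptor pattern was corrected after the values were seen, because it had caught srrt-1, which encodes Serrate. The named peaks were the 25 strongest, the 5 weakest, those at list genes, those met by 1 replicate, and 3 on each side of each distance limit. The unique 32-mers are a measure chosen here, not the read length. Peaks are not replicates, and 1 group allows no test across samples, so no p-values are given. The code was tested on simulated peaks and planted motifs. Alternatives are in the closing section. Python 3.11.15, NumPy 2.4.6, SciPy 1.17.1 and Matplotlib 3.10.9 were used.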

Additional observations from a re-analysis of the deposited data

How the results depend on the processing

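With the strongest regions of 1 replicate, as many as the thresholded list holds, in place of the thresholded list, the number of members ran from 188 to 248, the median signal from 25 to 43.4 on the replicates' own scales, the upstream share from 86.2 to 86.7%, the divergent share from 33.0 to 35.5% and the share with a heat shock element of 3 units from 6.85 to 14.9%. The lower element share came without replicate 2. Genes at members ran from 244 to 336, heat shock protein genes stayed at 7, J-domain genes ran from 3 to 5, ribosomal protein genes from 5 (without replicate 1) to 19, proteasome and ubiquitin genes from 7 to 8, respiration genes from 2 (without replicate 1) to 7 and nuclear pore genes from 4 to 6. Replicate 2's regions overlapped 164 of the 218 members and replicate 1's 150.

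Among the 660 strongest peaks there were 30 members with a median signal of 250.1, 23.3% at divergent pairs, and 36 genes, of which 3 were heat shock protein, 1 J-domain, 2 ribosomal protein, 1 proteasome or ubiquitin, 0 respiration and 0 nuclear pore genes. A limit of 250 bp from the 5' end left 141 members, 48.2% at divergent pairs, and 173 genes, of which 4, 3, 3, 5, 3 and 2 were in those lists. With both 5' ends of a pair within 250 bp of the summit, 14.2% of the 218 were at divergent pairs. Both replicates met 87.6% with at least 50% of the member covered, 87.6% with a region summit within 100 bp and 50% within as many of the strongest regions of each list as the thresholded list holds. A limit of 1000 bp to excluded genes, a motif window of 150 bp, and the 2 alternatives added after the data were seen (at most 3 matches, and peaks of at least 50% unique 32-mers) kept each value within its interval or within 1.5 times. No paired analysis was possible because there is 1 group.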
